A study of Mus musculus with 21 samples.

Results

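Olfactory receptor genes with reads in mouse spermatogenic cells were taken as the gene rows whose symbol starts with *Olfr* and whose raw read counts add up to 10 or more over all 21 libraries. The rule kept 93 of 1125 *Olfr* rows, out of 24456 gene rows in all. The members were thus chosen by their own counts, and the summed counts and the stage at which a gene is high are given as a description. RNA came from fractions of mouse spermatogenic cells. These were pachytene spermatocytes (meiotic cells), round spermatids (haploid cells that follow meiosis) and condensing spermatids (haploid cells in which histones give way to transition proteins and protamines), each with 3 wild-type and 3 *H2al2* KO libraries. Spermatozoa had 2 wild-type libraries and 1 *H2al2* KO library. The KO lacks the histone variant H2A.L.2, and the labels name no strain, age or further allele, nor whether animals were pooled. Replicates are numbered in the labels without saying that they came from separate animals, so p-values measure the spread between these libraries.

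Olfactory receptors are G protein-coupled receptors that form one of the largest gene families of the mouse, arranged in clusters on many chromosomes. In the nose each olfactory sensory neuron uses a single receptor gene, and odorant binding acts through the G protein subunit Gnal, the adenylate cyclase Adcy3 and a cyclic nucleotide-gated channel. Transcripts of some family members have long been known in testis and sperm. Most receptors have an intronless coding exon, which is often preceded by untranslated exons.

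The family is similar in sequence, and the authors left multiply aligned reads uncounted, so how far a gene can be told from its relatives matters below. The 30 bases that code for the conserved stretch of 10 residues at the inner end of the third membrane span show how alike some of the members are. They were read from GENCODE M21 transcripts (GRCm38, the assembly of mm10), 5′ to 3′ on the coding strand, and capitals mark bases that differ from *Olfr701*.
Olfr701: atggcctatgataggtatgtggccatttgt
Olfr697: atggcctatgaCaggtatgtggccatttgt
Olfr19: atggcctatgaCCgAtatgtggcAatCtgt
Olfr1509: atggcGtatgatCgTtatgtggcTatCtgC
Olfr212: TtATccCTGgatCgCtatCtggccatCtgC
In this most conserved stretch *Olfr697* differed from *Olfr701* at 1 base, *Olfr19* at 5 bases, *Olfr1509* at 6 and *Olfr212* at 11. Over whole transcripts the genes were easier to tell apart. Of all stretches of 75 bases, the read length, *Olfr701* shared none with a transcript of another *Olfr* gene, *Olfr112* shared 2.07% and *Olfr212* 4.60%. No 75-base stretch was shared for 36 of the 93 members, and 15 shared over 10%, among them *Olfr78* with 13.2%, *Olfr643* with 36.3% and *Olfr1371* with 51.4%. Counts of the last group are uncertain.

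The bases just before the annotated start of transcription were read from RefSeq (GRCm38.p6) for the 3 leading members found there, for *Olfr872*, with 50 of its 56 counts in condensing spermatids, and for *Olfr654*, the member with most counts in wild-type spermatozoa. Each run holds 150 bases, 5′ to 3′ toward the gene, all on the + strand, and capitals mark the motifs given further below.
Olfr701, chr7:106813979-106814128: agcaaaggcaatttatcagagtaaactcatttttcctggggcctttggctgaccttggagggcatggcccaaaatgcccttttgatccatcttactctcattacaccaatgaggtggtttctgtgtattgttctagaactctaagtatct
Olfr212, chr6:116506366-116506515: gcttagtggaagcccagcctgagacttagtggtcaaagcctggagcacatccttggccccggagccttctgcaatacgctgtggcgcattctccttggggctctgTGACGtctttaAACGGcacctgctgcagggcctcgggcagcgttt
Olfr1509, chr14:52450243-52450392: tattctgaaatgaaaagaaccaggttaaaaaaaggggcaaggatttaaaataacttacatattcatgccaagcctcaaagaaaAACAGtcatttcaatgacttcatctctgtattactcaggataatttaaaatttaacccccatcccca
Olfr872, chr9:20237012-20237161: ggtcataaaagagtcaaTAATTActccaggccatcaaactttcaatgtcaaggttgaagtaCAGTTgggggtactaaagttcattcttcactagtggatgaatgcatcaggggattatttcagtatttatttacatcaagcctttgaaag
Olfr654, chr7:104587569-104587718: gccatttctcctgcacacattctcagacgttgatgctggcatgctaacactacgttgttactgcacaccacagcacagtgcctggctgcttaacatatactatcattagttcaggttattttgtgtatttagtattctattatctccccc
The nearest annotated coding start lies 3956 bases away in *Olfr701* and 9263 bases away in *Olfr212*. In *Olfr1509*, *Olfr654* and *Olfr872* it lies 22, 36 and 52 bases away. GENCODE M21 starts *Olfr1509* further upstream, at chr14:52442990, so the bases printed for it lie within that gene model.

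Deposited counts on genes ranged from 5799060 to 8201682 in the libraries of spermatocytes and spermatids and from 2772995 to 3450580 in spermatozoa. The row *H2afb1*, a name that RefSeq lists for the H2A.L.2 gene *H2al2a* and also for *H2ab1*, was lower in each *H2al2* KO library than in any wild-type one of the same stage, with 19.9 to 24.6 against 190 to 199 counts per 1000000 counts on genes (CPM) in round spermatids. Markers of the labelled stages were present, and other cell types also showed. Summed CPM over 7 of 7 Sertoli markers averaged 24.8 in pachytene and 30.8 in round cells, 349 in condensing spermatids and 245 in spermatozoa. *Clu* alone averaged 18.9, 19.5, 243 and 229 CPM in the same order. In wild type 6 of 6 Sertoli markers tested were called lower in spermatozoa than in condensing spermatids, where 35.8% of 15116 genes were. Over 6 of 6 Leydig markers the averages were 102, 10.1, 147 and 12.9 from pachytene spermatocytes to spermatozoa. Spermatozoa alone held the epididymis epithelium markers *Crisp1* and *Adam7* at a high level (summed CPM 548 to 1971, with *Lcn5* and *Lcn8* at 0) and macrophage markers at 274 to 1211. In bulk RNA, fewer cells of a type and less RNA per cell cannot be told apart.

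Reads on olfactory receptor genes were few. Of the 1125 *Olfr* rows, 795 had no count in any library and 237 had 1 to 9 counts in all, whereas 79.3% of all other gene rows reached 10 counts. The 93 members held 7350 counts, which is 92.6% of the counts on *Olfr* rows, and 2 genes, *Olfr701* and *Olfr112*, held 48.0% of those. The median member had 27 counts in all and was seen in 12 libraries. Of the members, 64 had 20 or more counts, 24 had 50 or more and 9 had 100 or more, and 10 had a count in each of the 18 libraries of spermatocytes and spermatids. At the edge of the rule, *Olfr194* and *Olfr307* had 10 counts, and *Olfr536*, *Olfr644* and *Olfr952*, just outside, had 9. Among the other chemoreceptor families, 15 of 211 *Vmn1r* rows, 27 of 127 *Vmn2r* rows (vomeronasal receptors), 2 of 3 *Tas1r* rows and 3 of 35 *Tas2r* rows (taste receptors), 1 of 6 *Fpr* rows and none of 15 *Taar* rows reached 10 counts.

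The summed level of the family had its highest mean in round spermatids. All *Olfr* rows together had 30.6 ± 8.68 CPM in pachytene spermatocytes, 85.4 ± 20.9 in round spermatids and 69.0 ± 5.80 in condensing spermatids (SD, n = 6 each, both genotypes), and 15.6 ± 3.92 in spermatozoa (SD, n = 3). The lowest round spermatid library, at 60.4 CPM, lay above the highest pachytene library at 41.4 CPM, while round spermatids as a group overlapped the condensing spermatids, which ran from 61.8 to 76.9 CPM. From pachytene to round fractions the summed CPM of 6 of 6 macrophage markers went from 3.24 (2.42 to 3.85) to 17.4 (14.5 to 21.01), with 5 of 5 tested called higher in wild type, and that of 5 of 5 peritubular myoid markers from 78.1 (61.4 to 98.2) to 333 (302 to 389), with 1 of 5 called higher and 1 lower. *Actg2* alone made 61.3 and 321 CPM of these myoid sums. The means of *Acta2*, *Myh11*, *Tagln* and *Des* were lower in round than in pachytene fractions. No marker of the macrophage and myoid lists was at 0, and their part in the receptor counts was not tested. Without *Olfr701* and *Olfr112* the spermatids could not be ordered, with 39.2 ± 12.7 CPM in round (25.5 to 59.2) and 44.5 ± 4.53 in condensing spermatids (38.0 to 49.7). Pachytene spermatocytes then had 19.4 ± 7.66 CPM and overlapped the round spermatids. KO pachytene replicates 1 and 2, at 27.1 and 28.4 CPM, lay above replicate 1 of wild-type and KO round spermatids, at 25.5 and 25.6 CPM. All other pachytene libraries lay below every round library. A single library showed 46 to 76 receptor genes in pachytene spermatocytes, 82 to 122 in round spermatids, 105 to 127 in condensing spermatids and 15 to 27 in spermatozoa. At the depth of the shallowest library the expected numbers were 35.6, 57.1, 69.1 and 18.1 genes on average. In pachytene spermatocytes and round spermatids, libraries with a larger share of reads in the 5 rows that name no gene had a higher summed level. These rows hold all reads not assigned to a single gene, and the kinds of such reads were not separated. The 3 pachytene libraries with 46.5% to 51.7% of such reads had 34.0 to 41.4 CPM and the other 3, with 35.6% to 41.8%, had 22.2 to 24.5 CPM. In round spermatids replicate 1 of each genotype had 34.6% and 34.8% of such reads with 62.7 and 60.4 CPM, against 37.9% to 42.1% and 81.6 to 112 CPM in the other 4 libraries. Condensing spermatids and spermatozoa showed no such order, and the KO spermatozoa library had the largest share, 57.7%, with the lowest level, 12.4 CPM. The part of these reads in the receptor counts was not tested.

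**Figure D1:**
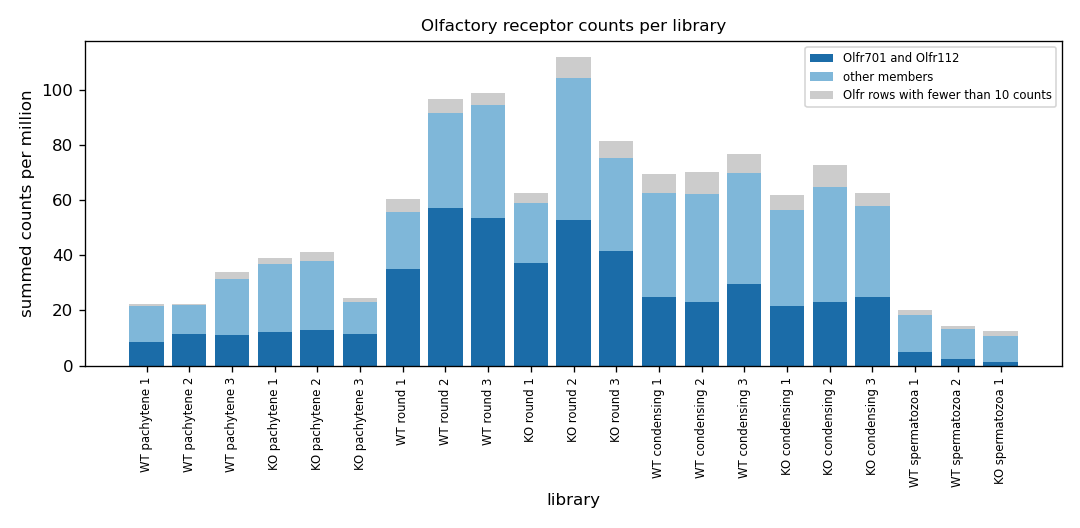
Summed CPM (vertical axis) on *Olfr* rows in each of the 21 libraries (horizontal axis), split into *Olfr701* with *Olfr112*, the other 91 members and the rows with fewer than 10 counts. The 6 round spermatid bars run from 60.4 to 112 CPM, and the 3 spermatozoa bars are the shortest.

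By the stage of their highest mean CPM over both genotypes, 36 members were highest in round spermatids, 37 in condensing spermatids, 14 in pachytene spermatocytes and 6 in spermatozoa. In wild-type libraries alone these numbers were 34, 43, 9 and 7, and in *H2al2* KO libraries 35, 34, 18 and 5, with 1 member without a count. The same stage came first in both genotypes for 55 members. Among the 24 members with 50 or more counts, 14 were highest in round spermatids and 4 in condensing spermatids.

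**Figure D2:**
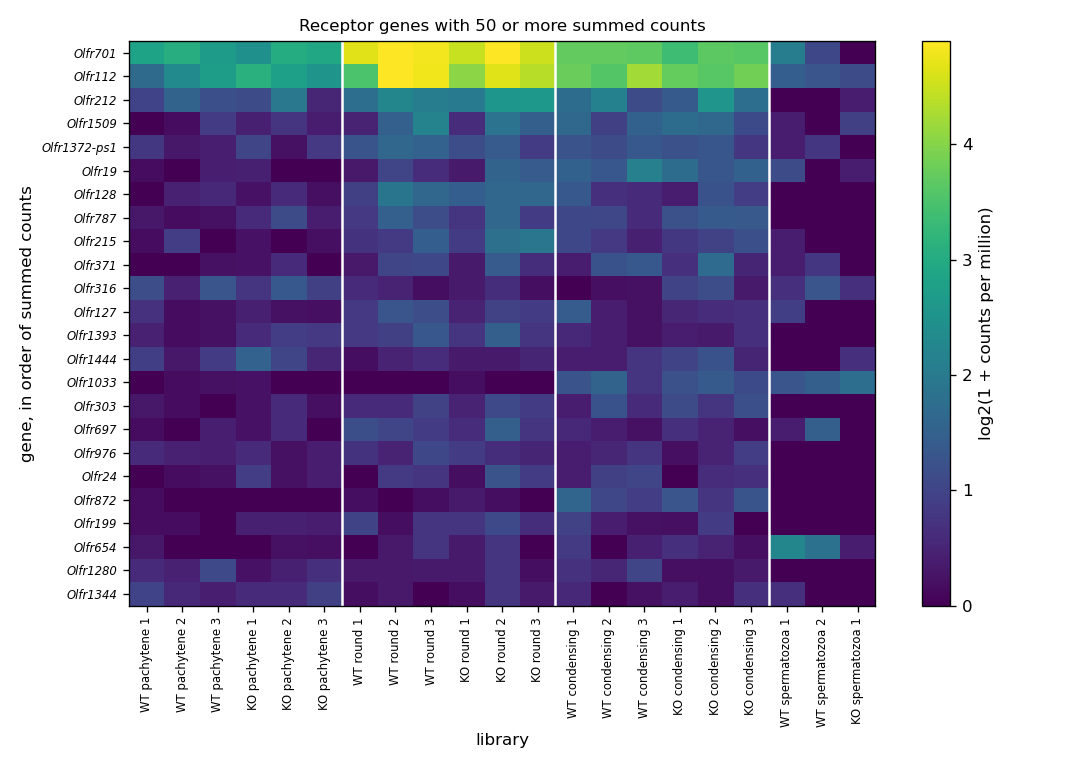
Level as log2(1 + CPM) (colour) of the 24 members with 50 or more summed counts (rows, in order of their sum) in the 21 libraries (columns, white lines between stages). *Olfr701* and *Olfr112* stand out in every spermatid library, *Olfr1033* and *Olfr872* are near 0 before condensing spermatids, and most rows are at or near 0 in spermatozoa.

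*Olfr701*, the member with most reads, lies on chr7:106814129-106821472 (+ strand, GENCODE M21), with up to 5 exons, in a cluster of 66 *Olfr* rows of which 5 are members. Counts in wild-type pachytene spermatocytes were 50, 60 and 34, and in *H2al2* KO pachytene spermatocytes 26, 42 and 44. In round spermatids they were 192, 221 and 197 in wild type and 159, 208 and 159 in KO. In condensing spermatids they were 79, 81 and 70 in wild type and 64, 86 and 79 in KO, and in spermatozoa 11 and 3 in wild type and 0 in KO. The stages from pachytene to condensing did not overlap in CPM, and both genotypes showed the same order. Wild-type means were 6.33 ± 0.926, 26.7 ± 2.17 and 12.1 ± 0.146 CPM (SD, n = 3) in pachytene, round and condensing cells. With edgeR's quasi-likelihood test, adjusted with Benjamini-Hochberg over all genes tested, the wild-type rise from pachytene spermatocytes to round spermatids was 2.25 ± 0.154 (log2, SE, adjusted p = 7.6e-08) and the change to condensing spermatids was -1.21 ± 0.145 (adjusted p = 3.5e-05).

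*Olfr112* lies on chr17:37561668-37569451 (− strand) with up to 3 exons, in a cluster of 46 *Olfr* rows that also holds the members *Olfr128*, *Olfr127*, *Olfr126*, *Olfr93* and *Olfr761*. Counts were 18, 33 and 35 in wild-type and 44, 34 and 32 in KO pachytene spermatocytes, and 82, 219 and 196 in wild-type and 115, 176 and 142 in KO round spermatids. They were 82, 73 and 104 in wild-type and 85, 84 and 94 in KO condensing spermatids, and 6, 4 and 4 in the 3 spermatozoa libraries. Every round spermatid library lay above every pachytene library, while replicate 1 of wild-type round spermatids lay below all 6 condensing libraries, KO replicate 1 lay among them and the other 4 lay above them. The rise to round spermatids was 2.68 ± 0.393 in wild type (log2, SE, adjusted p = 4.3e-05) and 1.88 ± 0.207 in KO (adjusted p = 9.3e-08). From round to condensing spermatids the change was -0.73 ± 0.343 in wild type (adjusted p = 0.0926) and -0.69 ± 0.183 in KO (adjusted p = 0.00356). Of 14 alternatives, the wild-type change passed only without the filter, with the replicate block and without wild-type round spermatids replicate 1.

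*Olfr212* lies on chr6:116506516-116517965 (+ strand) with up to 2 exons. Counts were 8, 16 and 8 in wild-type and 7, 17 and 3 in KO pachytene spermatocytes, 19, 29 and 23 in wild-type and 22, 36 and 37 in KO round spermatids, and 15, 23 and 7 in wild-type and 11, 36 and 17 in KO condensing spermatids. Wild-type spermatozoa had none and KO spermatozoa 1. Round spermatids lay above pachytene spermatocytes within each genotype, and condensing spermatids overlapped both. The rise from pachytene to round was 1.30 ± 0.380 in wild type (log2, SE, adjusted p = 0.00777) and 1.70 ± 0.471 in KO (adjusted p = 0.00308).

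**Figure D3:**
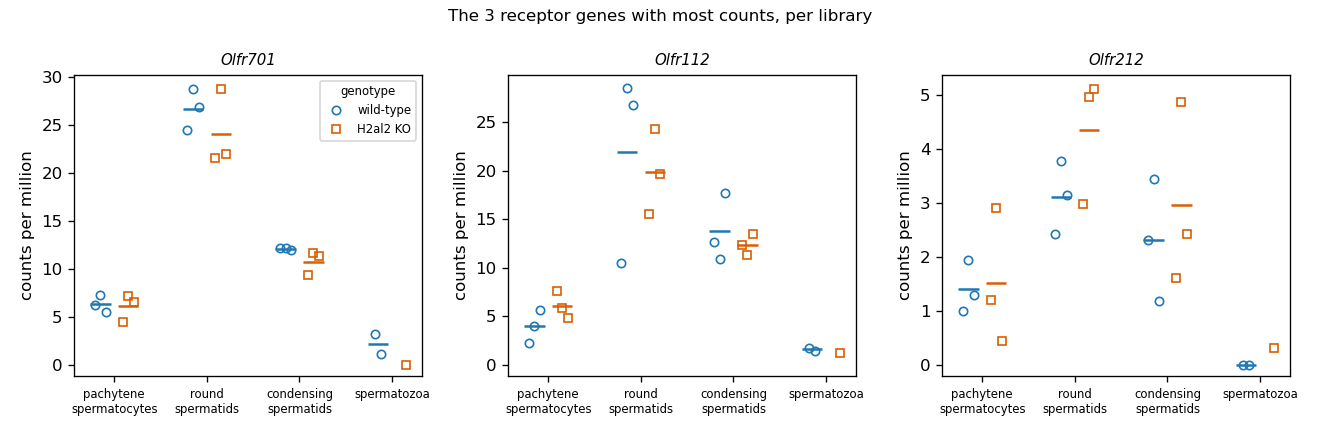
CPM (vertical axis) of *Olfr701*, *Olfr112* and *Olfr212* by stage (horizontal axis), with a circle for each wild-type and a square for each *H2al2* KO library and a line at the mean where a group has more than 1 library. All 3 genes have their highest mean in round spermatids, and for *Olfr701* these 6 libraries lie above all others.

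As mean CPM over 21 libraries divided by the length in kilobases of the longest GENCODE transcript matched to RefSeq, *Olfr701* stood at 4.08, *Olfr112* at 3.57, *Olfr1509* at 1.17, *Olfr787* at 0.866, *Olfr19* at 0.850, *Olfr212* at 0.844 and *Olfr128* at 0.835. The transcripts behind the deposited counts may differ from these, and the order from *Olfr787* to *Olfr128* rests on small differences.

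Of the 93 members, 7 passed the filter on low counts in the wild-type fit of 3 stages and 7 in the KO fit. A member that passed only through the stage where it is high had to differ, so the counts of calls describe these 7 and not the family. The genes *Olfr212*, *Olfr128*, *Olfr1509*, *Olfr1372-ps1* and *Olfr19* had too few reads in pachytene spermatocytes to pass there. Their adjusted p-values in this step are a description and not a test of a rise. In wild type 7 of 7 were higher in round spermatids than in pachytene spermatocytes, where 34.4% of 14011 genes tested were called higher and 35.9% lower. In KO 6 of 7 were higher (36.5% of 13877 genes called higher and 38.4% lower), and *Olfr787* was at 0.99 ± 0.567 (log2, SE, adjusted p = 0.119).

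The remaining genes called in this step had fewer reads. *Olfr128*, in the *Olfr112* cluster, had 0, 3 and 3 counts in wild-type and 1, 3 and 1 in KO pachytene spermatocytes and 7, 21 and 15 in wild-type and 13, 15 and 15 in KO round spermatids. Its rise of 2.91 ± 0.699 in wild type (log2, SE, adjusted p = 0.00220) stood beside 2.92 ± 0.576 in KO (adjusted p = 0.000139). *Olfr1509*, on chromosome 14, went from 0, 1 and 5 to 3, 14 and 26 counts in wild type and from 2, 4 and 2 to 4, 19 and 13 in KO. Here the stages overlapped, with rises of 2.91 ± 0.893 (adjusted p = 0.0104) and 2.03 ± 0.614 (adjusted p = 0.00585), and the calls were lost without wild-type round spermatids replicate 3 (adjusted p = 0.0699) and without KO round spermatids replicate 2 (adjusted p = 0.0540).

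*Olfr1372-ps1*, a transcribed pseudogene on chromosome 11 that overlaps *Gm26551* on the same strand, rose by 2.15 ± 0.442 in wild type (log2, SE, adjusted p = 0.000699), from 6, 2 and 2 to 11, 16 and 14 counts. In KO it had 6, 1 and 5 counts in pachytene and 9, 12 and 6 in round spermatids and did not pass the filter. *Olfr19*, the only *Olfr* row of its cluster on chromosome 16, had 1, 0 and 2 counts in wild-type pachytene spermatocytes and 2, 8 and 4 in round spermatids, and its wild-type rise of 2.23 ± 0.904 (adjusted p = 0.0416) was lost with DESeq2, with the similar round replicates summed, and without any of 5 single libraries. In KO it had 2, 0 and 0 and then 2, 14 and 12 counts, a rise of 3.49 ± 0.902 (adjusted p = 0.00172).

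Many members missed the filter with only a few reads per library, so each stage step was also read over all 93. With CPM of all 6 libraries of one stage above all 6 of the other, 6 members were higher in round spermatids than in pachytene spermatocytes (*Olfr701*, *Olfr112*, *Olfr128*, *Olfr697*, *Olfr23* and *Olfr700*) and 1 was lower (*Olfr262*). Of 18595 gene rows with 10 or more summed counts, 21.2% were higher and 27.9% lower in this sense, with far more reads per gene. *Olfr697*, a neighbour of *Olfr701* on chromosome 7, had 1, 0 and 2 counts in wild-type and 1, 3 and 0 in KO pachytene spermatocytes, against 10, 8 and 6 in wild-type and 4, 13 and 5 in KO round spermatids. Without the filter edgeR tested 93 members in wild type and called 22, *Olfr262* lower and the other 21 higher, where 25.8% of 19890 genes were called higher and 26.4% lower. In KO it tested 92 and called 21, with *Olfr262*, *Olfr1444* and *Olfr1275* lower and the other 18 higher, where 28.1% of genes were called higher and 27.6% lower. DESeq2 called 13 of 75 members in wild type, where 55.8% of genes were called in either direction, and 11 of 73 in KO, where 57.1% were. *Olfr215*, with 5, 6 and 13 counts in wild-type and 6, 18 and 20 in KO round spermatids against 1, 7, 0, 1, 0 and 1 in pachytene spermatocytes, was called by the unfiltered fit in KO (log2 fold change 4.14, adjusted p = 3.2e-08). DESeq2 also called it in KO, at a larger adjusted p of 0.000448. Neither called it in wild type, where the stages overlapped.

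*Olfr262* ran the other way. This gene, on chromosome 19, had 4, 2 and 8 counts in wild-type and 7, 5 and 5 in KO pachytene spermatocytes, 0, 1 and 0 and again 0, 1 and 0 in round spermatids, and 1, 2 and 3 and 4, 3 and 0 in condensing spermatids. It was called lower in round spermatids by the unfiltered fit in wild type (log2 fold change -3.28) and in KO (-3.74), and by DESeq2 in both. *Olfr262* was picked for its values in these same libraries, so the calls are no separate support. *Olfr316*, called by no fit of this step, had 10, 3 and 9 and 4, 9 and 6 counts in pachytene spermatocytes and 4, 3 and 1 and 2, 4 and 1 in round spermatids, and the stages overlapped. *Olfr20*, also called by none, had 20 counts in pachytene spermatocytes, 7 in round spermatids and 6 in condensing spermatids, summed over 6 libraries each. Leydig markers were also higher in pachytene and condensing than in round fractions, as given above, and their part in these genes was not tested.

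From round to condensing spermatids, 2 of the 7 tested members were called in wild type, *Olfr19* higher and *Olfr701* lower, where 28.3% of genes were called higher and 21.8% lower. In KO 3 of 7 were called, all lower (*Olfr112*, *Olfr128* and *Olfr701*), where 29.7% of genes were called higher and 24.5% lower. *Olfr19* had 12, 10 and 20 counts in wild-type and 16, 11 and 13 in KO condensing spermatids. Its step was 1.77 ± 0.553 in wild type (log2, SE, adjusted p = 0.0175), lost without wild-type condensing spermatids replicate 3 or without wild-type round spermatids replicate 1 or 3, and 0.54 ± 0.486 in KO (adjusted p = 0.367). *Olfr128* fell by 1.21 ± 0.439 on the log2 scale in KO (adjusted p = 0.0255), lost with DESeq2 and without any of 4 single libraries, and stood at -1.13 ± 0.579 in wild type (adjusted p = 0.122). In wild type *Olfr19* passed the filter through condensing spermatids alone, and in KO *Olfr128* through round spermatids alone. These calls are a description too. *Olfr701* fell by 1.17 ± 0.181 on the log2 scale in KO (adjusted p = 2.5e-05).

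In 5 members all 6 condensing libraries lay above all 6 round libraries in CPM, and in 2 they lay below (*Olfr701* and *Olfr1393*), where 21.6% of the 18595 gene rows were above and 13.7% below. These were *Olfr1033*, *Olfr872*, *Olfr78*, *Olfr1432* and *Olfr690*. *Olfr1033*, on chromosome 2, had 0, 0 and 0 counts in wild-type and 1, 0 and 0 in KO round spermatids and 9, 13 and 4 in wild-type and 9, 12 and 8 in KO condensing spermatids. Against 3 counts as the limit of a library at 0, its wild-type mean in condensing spermatids was at least 3.27-fold higher. *Olfr872*, on chromosome 9, had 1, 0 and 1 and 2, 1 and 0 counts in round spermatids and 13, 7 and 5 and 10, 5 and 10 in condensing spermatids. *Olfr78*, a receptor of short-chain fatty acids known from blood vessels and the carotid body, had 0, 0 and 1 and then 0, 0 and 0 counts in round spermatids and 1, 5 and 10 and 12, 7 and 7 in condensing spermatids.

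None of these 3 genes passed the filter in the fits of 3 stages. Both DESeq2 and the unfiltered edgeR fit called each of them higher in condensing than in round spermatids in both genotypes. They are shown here because these same libraries did not overlap, so the calls are no separate support. The unfiltered log2 fold change of *Olfr78* in wild type was 3.76. Without the filter 11 of 93 members were called in wild type, 7 higher and 4 lower, where 21.1% of genes were higher and 15.7% lower. In KO 8 of 92 were called, 5 higher and 3 lower, where 23.5% were higher and 17.5% lower. DESeq2 called 5 of 30 members in wild type and 5 of 57 in KO, where 42.3% and 40.6% of genes were called. *Olfr78* shares its strand with *Olfr560*, which it overlaps, and 13.2% of its 75-base stretches recur in other receptor transcripts. *Olfr39*, with 5, 6 and 0 counts in wild-type and 1, 3 and 4 in KO condensing spermatids, had no count in any round spermatid library. Sertoli markers rose between the same fractions, from 30.8 to 349 summed CPM (range 255 to 432 in condensing spermatids), and Leydig markers from 10.1 to 147. The red blood list went from 1.22 to 21.5 summed CPM, of which *Alas2* alone made 1.22 and 20.2. *Hba-a2* stood at 0 and 1.22 CPM, *Hbb-bs* had 2 counts in all 21 libraries and *Hba-a1* 0. The part of these markers in the levels of the receptor genes was not tested.

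**Figure D4:**
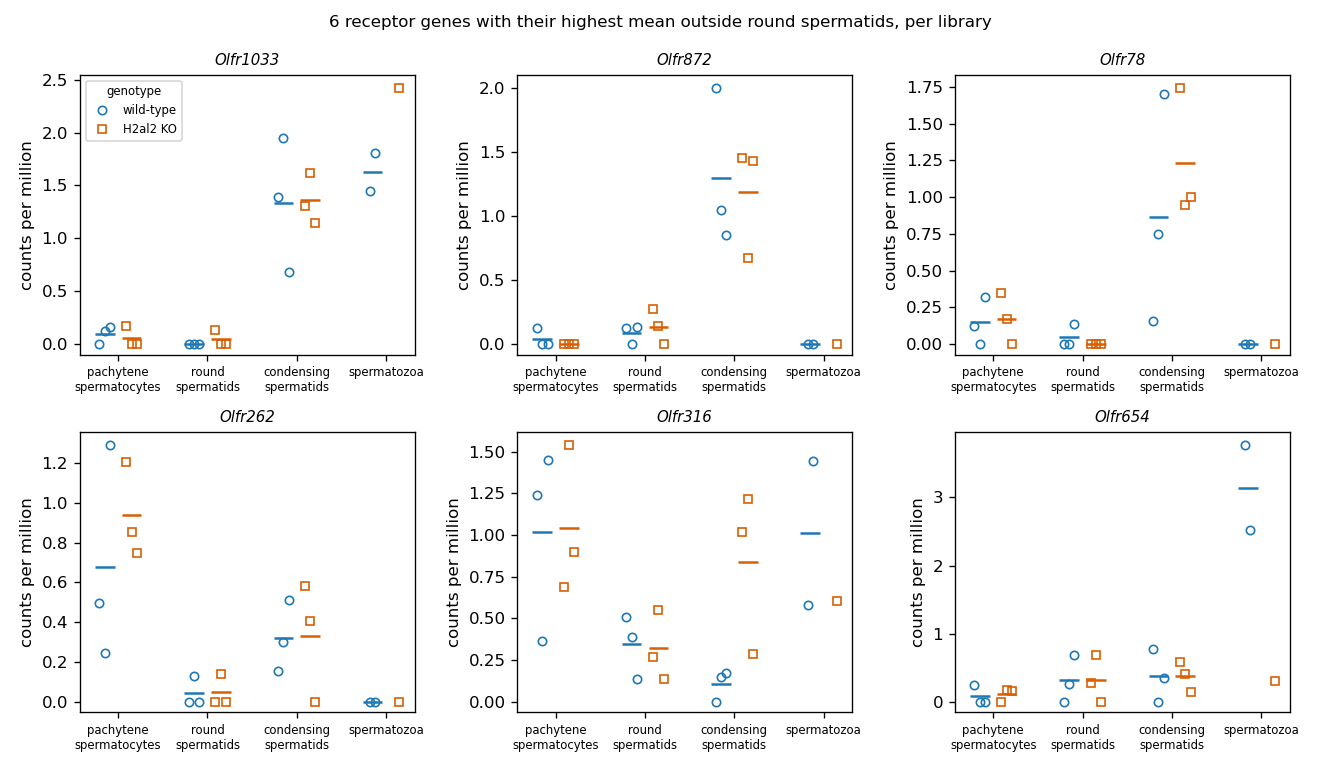
CPM (vertical axis) by stage (horizontal axis) of 6 members with their highest mean outside round spermatids, chosen after their values were seen, with circles for wild-type and squares for *H2al2* KO libraries and a line at the mean where a group has more than 1 library. *Olfr1033*, *Olfr872* and *Olfr78* are at or near 0 in round spermatids and above 0 in every condensing library, and *Olfr654* is highest in both wild-type spermatozoa libraries.

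Spermatozoa held few of these transcripts. Of the 93 members, 63 had no count in any of the 3 libraries and 30 had one, where a count of 0 allows up to 0.869 to 1.08 CPM per library (3 counts, counting error only). Comparing wild-type spermatozoa with wild-type condensing spermatids, 7 members passed the filter and 5 were called, 1 higher and 4 lower, where 36.6% of 15116 genes were called higher and 35.8% lower. Members that passed only through the stage where they are high had to differ here too. Without the filter 13 of 91 were called, 2 higher and 11 lower, where 29.5% of genes were higher and 29.8% lower, and DESeq2 called 5 of 44, where 55.7% of genes were called. *Olfr654*, on chromosome 7, had 13 and 7 counts in wild-type spermatozoa (3.77 CPM, 95% Poisson interval 2.01 to 6.44, and 2.52 CPM, 1.01 to 5.20), against 5, 0 and 2 in wild-type condensing spermatids. These 2 libraries held 20 of its 54 counts. The gene was picked for its counts there and passed the filter through the same libraries, so its fitted difference of 3.06 ± 0.721 (log2, SE) is given with no test. The KO spermatozoa library had 1 count (0.303 CPM, interval 0.0077 to 1.69), and with 1 KO library the genotypes were not tested.

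*Olfr1033* had 5 and 5 counts in wild-type spermatozoa and 8 in KO, with a difference from wild-type condensing spermatids of 0.27 ± 0.627 (log2, SE, adjusted p = 0.710), which shows neither a change nor an equal level. *Olfr112* was lower by 3.05 on the log2 scale (-3.05 ± 0.424, adjusted p = 1.5e-06), *Olfr701* changed by -2.39 ± 0.385 (adjusted p = 1.1e-05) and *Olfr1509* by -3.14 ± 1.08 (adjusted p = 0.0129), the last lost with DESeq2 and without wild-type spermatozoa replicate 2. *Olfr1509* passed the filter through condensing spermatids alone, so its adjusted p is a description and not a test. *Olfr212* had no count in either wild-type library, and was at least 2.14-fold higher in condensing spermatids against the limit of 3 counts in the shallower library. *Olfr19* stood at -1.74 ± 0.813 (adjusted p = 0.0597). Among the members with highest mean CPM over the 3 libraries, *Olfr316* had 2, 4 and 2 counts, and *Olfr920*, outside the rule for named genes and picked after its values were seen, had 0 and 1 in wild type and 7 in KO (2.12 CPM, interval 0.853 to 4.37). The epididymis epithelium and macrophage markers given above were high in the same libraries, and their part in *Olfr654*, *Olfr1033* and *Olfr920* was not tested.

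No member was called different between *H2al2* KO and wild type. In pachytene spermatocytes edgeR called 0 of 2 members tested, and 0% of 12236 genes. In round spermatids it called 0 of 7, and 0.0156% of 12804 genes. In condensing spermatids it called 0 of 5, and 0.00728% of 13734 genes. At an unadjusted p under 0.05 the numbers of members were also 0, 0 and 0, beside 815 of 12236, 753 of 12804 and 870 of 13734 genes. DESeq2 called no member. *Olfr701* differed by -0.02 (log2, 95% interval -0.50 to 0.46) in pachytene cells, by -0.16 (-0.44 to 0.12) in round spermatids and by -0.14 (-0.45 to 0.18) in condensing ones. *Olfr112* differed by 0.66 (-0.01 to 1.32), -0.15 (-0.75 to 0.45) and -0.12 (-0.50 to 0.26) in the same order. At their widest these intervals ran from -0.75 to 1.32. Without the filter edgeR tested 87, 91 and 93 members in the 3 stages and called 0, beside 1 of 18945, 28 of 19514 and 27 of 19739 genes. Of these members 3, 4 and 8 were at an unadjusted p under 0.05, and the share over all genes was not computed there. DESeq2 gave an adjusted p to 87, 91 and 2 members, and called 2 of 18945, 6 of 19512 and 13 of 9024 genes. At a few counts per library, differences in the other members were not detectable at this depth.

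The effect of the KO was also compared between stages. Of 11 members tested, 0 were called for the difference between round spermatids and pachytene spermatocytes, and 0% of 14479 genes. At an unadjusted p under 0.05 were 1050 of 14479 genes and 1 member, *Olfr787* (log2 difference -1.91 ± 0.913, adjusted p = 0.676). For the difference between condensing and round spermatids 0 of 11 were called, again beside 0% of 14479 genes. Here 0 members and 407 of 14479 genes were at an unadjusted p under 0.05, and DESeq2 called no member in either.

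Of 6 receptors known by name, *Olfr78* and *Olfr558* were members. *Olfr16*, the mouse sperm receptor also known as MOR23, and *Olfr544* had no count in any library, and *Olfr1* and *Olfr2* had 1 count each in all 21. *Olfr558*, like *Olfr78* known from blood vessels, had 34 counts, with 12 in pachytene spermatocytes, 7 in round and 15 in condensing spermatids and 0 in spermatozoa. A count of 0 does not show that a transcript is absent, since 3 counts in a library of this depth correspond to 0.366 to 1.08 CPM.

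Genes that carry the receptor signal in olfactory neurons were measured from a list of 18. In wild type 15 passed the filter, of which 5 were higher and 5 lower in round spermatids than in pachytene spermatocytes, 3 higher and 4 lower in condensing than in round spermatids, and 5 higher and 7 lower in spermatozoa than in condensing spermatids. Over all genes 34.4% and 35.9%, 28.3% and 21.8%, and 36.6% and 35.8% were called higher and lower in these 3 steps. In KO 7 of 15 were higher and 6 lower in the first step and 2 higher and 4 lower in the second. Over all genes 36.5% and 38.4%, and 29.7% and 24.5%, were called higher and lower in these KO steps. Their median in the first wild-type step was 0.34 (log2), against -0.02 over all genes tested. It was -0.09 from round to condensing spermatids, against 0.04 over all genes. From condensing spermatids to spermatozoa it was -0.81, against -0.00014. *Gnal*, the olfactory G protein alpha subunit, stood at 3.40 ± 1.09 CPM in pachytene, 3.94 ± 1.06 in round and 3.76 ± 1.04 in condensing cells (SD, n = 6), and its wild-type step to round spermatids was 0.34 (log2, adjusted p = 0.415). *Adcy3*, the cyclase, stood at 3.79 ± 1.16, 5.19 ± 0.421 and 3.97 ± 0.988 CPM. The channel subunit *Cnga4* rose in round spermatids by 1.64 in wild type (log2, adjusted p = 0.00043), from 1.84 ± 0.367 to 5.34 ± 1.11 CPM over both genotypes, while the principal subunit *Cnga2* had 7 counts in all 21 libraries and the G protein gamma subunit *Gng13* 14. *Pde4a*, a phosphodiesterase that ends the cyclic AMP signal, rose by 1.73 (adjusted p = 1e-05), from 49.5 ± 10.3 to 157 ± 10.5 CPM, and *Calm2*, one of the calmodulin genes, changed by -2.995 (log2).

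Factors for receptor transport and receptor gene choice, 12 genes, were also uneven. In wild type 9 passed the filter, with 4 higher and 1 lower in round than in pachytene cells and 3 higher and 2 lower in the next step, and in spermatozoa 2 of 8 were higher and 3 lower than in condensing spermatids, to be read against the same shares over all genes. In KO 5 of 10 were higher and 0 lower in the first step, and 2 higher and 3 lower in the second. Over all genes these KO shares were 36.5% and 38.4%, and 29.7% and 24.5%. *Rtp1*, which carries receptors to the cell surface, was detected at 0.332 ± 0.195 CPM in pachytene, 1.84 ± 0.641 in round and 0.642 ± 0.289 in condensing cells. It was called higher in KO round spermatids than in KO pachytene spermatocytes (log2 fold change 3.37), and in wild type it did not pass the filter. *Lhx2* and *Ebf2*, transcription factors of receptor gene choice, rose by 1.49 and 2.23 (log2) in wild-type round spermatids. *Reep1* rose in both steps in wild type, by 1.52 and 3.05 (log2), to 59.1 ± 8.73 CPM in condensing spermatids. Of 8 markers of olfactory neurons, *Omp*, the olfactory marker protein, had 0 or 1 count in each library of spermatocytes and spermatids and 3 to 10 in spermatozoa, and *Stoml3*, *Cnga2* and *Rtp2* had 2, 7 and 9 counts in all 21 libraries. The other 4 had more, with 426 counts for *Cnga4*, 124 for *Rtp1*, 81 for *Gap43*, which was highest in spermatozoa at 2.73 CPM, and 46 for *Gng8*. No gene of these lists was called between genotypes.

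The members were spread over 14 of the 17 chromosomes that carry *Olfr* rows and over 28 of 49 clusters (rows less than 1000000 bases apart, by start). The largest cluster, on chromosome 2 with 222 rows, held 5 members (2.25%), the chromosome 7 cluster of *Olfr78*, *Olfr558* and *Olfr654* held 10 of 124 (8.06%), a chromosome 9 cluster 10 of 99 (10.1%), a chromosome 16 cluster 5 of 27 (18.5%) and a second cluster of chromosome 2 held 6 of 37 (16.2%). Large clusters with 20 rows on chromosome 1 and 21 on chromosome 6 held none. The cluster of *Olfr701* and that of *Olfr112* held 2011 and 1965 member counts.

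Members differed from other *Olfr* rows in their annotation, given here as a description because reads from testis are among the sources of gene models. More than 1 exon was annotated for 18 of 91 members with a RefSeq-matched model (19.8%) and for 100 of 1020 other rows (9.80%), and the median lengths were 1033 and 954 bases. A RIKEN clone name was listed as a synonym for 5 members, *Olfr701*, *Olfr112*, *Olfr212*, *Olfr1344* and *Olfr78*, and for 0 of 1019 other rows. Of the members, 11 overlapped another annotated gene on the same strand, where the authors' counting drops reads that fit both, and 5 a gene on the opposite strand.

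Windows of 300 bases (250 before to 50 after the RefSeq start), called promoters here, were found for 77 members and 856 other *Olfr* rows. A RefSeq start can lie within a longer GENCODE gene model, as in *Olfr1509*, so some windows may not be promoters. The TATA letters TATAAA, searched on both strands as all motifs here, occurred in 37.7% of members, 41.4% of other *Olfr* rows and 14.2% of 27025 promoters of all genes. The homeodomain letters TAATTA occurred in 25.97%, 17.99% and 5.31%. The core TGACG of the cAMP response element occurred in 7.79%, 5.49% and 21.02%, the full element TGACGTCA in 0%, 0.117% and 1.88%, the MYB letters AACNG in 87.0%, 81.8% and 80.4%, the RFX letters GTTGCC in 7.79%, 5.26% and 12.7% and the Olf/Ebf core CCCNNGGG in 1.30%, 3.15% and 13.4%. The full cAMP response element holds the core. Differences between members and other receptor promoters rest on few genes, such as 6 members with TGACG and 1 with CCCNNGGG. Of the sequences printed above, that of *Olfr212* held TGACG 45 bases and AACNG 34 bases before the start, that of *Olfr1509* AACNG 67 bases before it, and that of *Olfr872* TAATTA 133 and AACNG 89 bases before it, whereas those of *Olfr701* and *Olfr654* held none of the motifs in the 150 bases shown.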

How the data were processed

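Total RNA of 21 libraries was depleted of ribosomal RNA and sequenced as stranded paired reads. Per the paper's methods and the submitters' processing notes, the authors aligned reads to mm10 with STAR 2.7.11b and counted them with HTSeq over exons (reverse strand, strict intersection, no multiply aligned reads), and they deposited raw counts per gene for each library. Their notes also name DESeq2 1.22.2. The 5 rows that name no gene, with 34.6% to 57.7% of counted reads, were left out.

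The members and all gene lists were chosen with earlier results of these data known. CPM was computed as counts per 1000000 deposited counts on genes. Stages and genotypes were compared with edgeR 4.0.16 (R 4.3.3): TMM, filterByExpr, the quasi-likelihood F test and Benjamini-Hochberg adjustment over all genes tested, called at 0.05. Wild-type stages were fitted on 9 libraries, KO stages on 9, spermatozoa on 5, genotypes on 6 per stage and interactions on 18. The steps pachytene to round and round to condensing share the round spermatid libraries. The fits were tested on simulated counts. DESeq2 1.42.0, DESeq2 size factors, no filter, replicate blocks, left-out libraries and summed wild-type round replicates 2 and 3 were the alternatives. Those replicates differed by a mean chi-square of 1.06 per gene (other pairs 1.90 to 12.2), close to the 1 that counting error alone gives. They were kept as separate samples, but whether they are independent is not known. If they are not, the spreads and p-values that use wild-type round spermatids as 3 samples are too small. Error intervals on counts are exact Poisson and cover counting error only, and those of log2 fold changes are normal.

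Genes named were the 15 members with most counts, up to 5 called members per direction of each stage comparison, the 5 highest in spermatozoa, 3 on either side of the rule's edge, 6 receptors known by name and the pathway genes. Members outside this rule, such as *Olfr20*, *Olfr39*, *Olfr262*, *Olfr697* and *Olfr872*, were picked after their values were seen. Positions came from GENCODE M21, promoters and RefSeq matches from RefSeq, all on GRCm38. All 93 members matched by symbol. Protein sequences and the promoters of *Olfr112*, *Olfr78* and *Olfr1033* were not used here.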

Additional observations from a re-analysis of the deposited data

Results flagged for a closer look

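*Olfr325* was picked out because every *H2al2* KO library lay above every wild-type library in round spermatids in CPM (4, 4 and 3 counts against 2, 1 and 1) and below every one in condensing spermatids (0, 1 and 1 against 1, 1 and 1 counts), where the mean difference, KO minus wild type, was -0.0654 CPM. It rests on a few reads per library. The gene missed the filter on low counts, so the difference between the stages was not tested for it there, and without that filter edgeR called 0 members for this difference.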

How the results depend on the processing

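More members were called without the filter in all 5 stage comparisons and with DESeq2 in 4 of them. Without the filter they were 22 (wild type) and 21 (KO) of round against pachytene cells, 11 and 8 of condensing against round spermatids and 13 in wild-type spermatozoa, and with DESeq2 13, 11, 5 and 5 for the first 4 and an unchanged 5 in spermatozoa. Leaving out single libraries gave 5 to 8, 5 to 9, 1 to 3, 2 to 4 and 3 to 5 in that order of comparisons, with 1 without wild-type round spermatids replicate 3 and 3 without wild-type condensing spermatids replicate 1 or 2. All comparisons of genotypes stayed at 0 under every alternative run. Replicate numbers were not used as pairs, since same-numbered libraries did not deviate together at over 0.1 in every pair of any comparison. Between KO and wild-type round spermatids the correlations were 0.26, 0.10 and 0.06 for replicates 1, 2 and 3. Whether the numbers mark a shared batch is therefore not known. With the replicate block 7, 6, 3, 3 and 4 members were called. Of the alternatives for called log2 fold changes, 4 fell below the threshold and, leaving out single libraries, 15, and none turned. Uncalled genotype differences turned sign in *Olfr112* in round spermatids (0.0021 with replicates 2 and 3 summed, -0.49 to 0.10 leaving out libraries) and condensing spermatids (-0.29 to 0.13), and in *Olfr701* in pachytene spermatocytes (-0.18 to 0.15). With 50 or more counts required, 24 members were left, 58.3% of them highest in round and 16.7% in condensing spermatids. At equal depth 35.6, 57.1 and 69.1 receptor genes were expected per pachytene, round and condensing library, and with 3 or more counts required 16.2, 31.5, 34.5 and, in spermatozoa, 6.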
